A study of Mus musculus with 11 samples.

Results

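A set of 10 genes that mark macrophages was followed across the mammary glands of mice labelled as adipocyte Tsc1 knockouts and their controls: Adgre1, Csf1r, Cd68, Lyz2, Mrc1, Cd163, C1qa, C1qb, C1qc and Fcgr1. They are a set of known markers given by name, with no threshold on a measured value, and they are 10 of the 22196 genes for which reads were summed. All 10 had reads in every library and all 10 passed the filter on low counts. RNA came from the inguinal mammary gland of mice on a normal chow diet, taken 16 days after delivery, with the age label PND16.5. The 6 Knockout libraries carry the genotype Tsc1-fl/fl; Adipoq-Cre-Tg/+, and the 5 Wild-Type libraries carry Tsc1-fl/fl; Adipoq-Cre-+/+, so both groups hold the floxed Tsc1 alleles and differ in the Cre transgene. Adipoq-Cre is driven by the promoter of the adiponectin gene, which is active in adipocytes. Macrophages are therefore not the cells in which the Cre is meant to act, and any difference in their genes was read from RNA of the whole gland. The labels do not say whether each library is a different mouse, so p-values measure the spread between these libraries.

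Macrophages are phagocytes of the myeloid lineage that live in the stroma of the mammary gland, in its fat pad and between the layers of its ducts and alveoli. They depend on signalling through the receptor Csf1r and take up dying cells, antibody-coated particles and lipid. The C1q chains that they secrete form the recognition part of the first complement component, and the remaining markers are several surface receptors, a lysosomal glycoprotein and the secreted enzyme lysozyme. In RNA of a whole tissue, fewer cells of a type and less RNA per cell cannot be told apart.

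Depth ranged from 25758077 to 37820270 reads assigned to genes per library, and the mean depth did not differ by genotype (two-sided exact permutation test over 462 splits, p = 0.942). The scaling factor of the trimmed mean of M-values (TMM) was 1.07 ± 0.0975 over the 6 Knockout libraries (SD) and 0.934 ± 0.0952 over the 5 Wild-Type ones (SD) (exact permutation test, p = 0.0498). The 7 listed milk protein genes took 50.5% to 62.9% of all reads of a library, and all 8 listed adipocyte markers were measured. Tsc1 itself was at 10.1 ± 1.33 CPM in Knockout libraries (SD, n = 6) and 10.7 ± 1.11 CPM in Wild-Type libraries (SD, n = 5) (edgeR quasi-likelihood test, adjusted p = 0.772); CPM is a gene's reads scaled to its library's total times the TMM factor. The deletion is thus taken from the labels, since whole-gland RNA showed no called difference in Tsc1. Markers of B cells and of T and NK cells were high in Wild-Type 2, Wild-Type 5, Wild-Type 4 and Knockout 1. Summed B cell markers there were at 14.8 CPM or more, against 4.08 CPM or less in the other 7 libraries. Knockout 1 also held 1986 CPM of skeletal muscle genes, against 2.11 to 148 CPM in the other Knockout libraries.

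Sequences of the members bear on how their reads can be told apart. C1qa, C1qb and C1qc lie next to each other on the minus strand of chromosome 4 (GRCm38, from 136880129 to 136898803), and none of their 31-base words of coding sequence occurs in another gene. Lyz2 (chromosome 10, 117277331 to 117282321, minus strand) is the exception among the 10: 162 of its 417 words, or 38.9%, also occur in the neighbouring gene Lyz1 (chromosome 10, 117287797 to 117292868, minus strand), and the other 9 members share 0 words with any gene. Words were compared in the sense orientation of each gene only, so words shared with an opposite strand were not searched. The coding sequences of Lyz2 and Lyz1 are both 447 bases long, are 95.1% identical and differ at 22 bases, with a longest identical run of 118 bases. The length listed for the Lyz2 transcript is also 447 bases, so the reads were assigned on the coding sequence alone. The first 150 coding bases hold 14 of the 22 differences, which are in capitals here (GENCODE M21, transcripts Lyz2-201 and Lyz1-201), and they show where a read can be assigned to a single gene.
Lyz2: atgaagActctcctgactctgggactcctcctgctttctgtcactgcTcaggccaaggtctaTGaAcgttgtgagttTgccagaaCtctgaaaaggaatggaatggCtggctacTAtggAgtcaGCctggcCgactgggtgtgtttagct
Lyz1: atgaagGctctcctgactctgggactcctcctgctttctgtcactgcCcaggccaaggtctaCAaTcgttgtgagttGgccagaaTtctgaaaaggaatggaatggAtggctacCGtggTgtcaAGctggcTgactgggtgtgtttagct

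A promoter window of 300 bases, from 250 before to 50 after the gene's start, was found for 7 of the 10 members (RefSeq, GRCm38.p6), and those of the co-varying chains C1qb and C1qc are shown. They were searched on both strands for GAGGAA (the core bound by PU.1, the lineage factor of myeloid cells), TTGCNNAA (C/EBP) and TGANTCA (AP-1), none of which overlapped another, and matches are in capitals.
C1qb, chr4:136886151-136886450, minus strand: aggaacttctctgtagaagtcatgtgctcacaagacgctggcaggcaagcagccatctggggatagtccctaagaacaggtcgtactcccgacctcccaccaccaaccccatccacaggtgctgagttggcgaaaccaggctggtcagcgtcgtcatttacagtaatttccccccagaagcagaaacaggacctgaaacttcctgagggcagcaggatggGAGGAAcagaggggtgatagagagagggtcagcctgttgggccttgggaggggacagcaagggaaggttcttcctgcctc
C1qc, chr4:136892865-136893164, minus strand: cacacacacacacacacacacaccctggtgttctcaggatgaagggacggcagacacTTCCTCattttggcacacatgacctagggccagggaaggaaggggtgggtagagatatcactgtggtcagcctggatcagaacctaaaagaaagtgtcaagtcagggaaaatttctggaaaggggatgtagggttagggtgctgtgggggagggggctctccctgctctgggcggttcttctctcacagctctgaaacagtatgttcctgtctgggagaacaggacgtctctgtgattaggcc
Both windows held 1 match to the PU.1 core, on opposite strands and at different distances, and no match to the other motifs. The core was found in 5 of the 7 member windows, with 2 matches for Cd68, 3 for Mrc1 and 1 for Fcgr1, against 28.3% of the 32851 windows of all genes. Cd68 was the single member with a C/EBP match (1) or AP-1 matches (2); these motifs occur in 10.8% and 7.81% of all windows. The windows of Lyz2 and Cd163 held none of the 3 motifs. A match is a description of these letters and not a bound site.

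No member was called different between the genotypes, although the intervals of several are wide and Lyz2 averaged 12.6 CPM in Knockout against 24.3 CPM in Wild-Type. None of the 10 passed an adjusted p of 0.05 (edgeR's quasi-likelihood test, Benjamini-Hochberg over 12716 genes, adjusted p 0.369 to 0.999), 1 had an unadjusted p under 0.05 (Lyz2), and in none did the ranges of the groups separate. DESeq2 called 0 of the 10 and 146 of all 13395 genes (1.09%). Over all genes tested in edgeR 7 were called (0.055%), 1576 had an unadjusted p under 0.05 (12.4%), and 168 had groups that did not overlap (1.32%). Among them 3 members had a positive and 7 a negative log2 fold change, with a median of -0.05 beside -0.01 over all tested genes, while on the TPM scale, where the median of all genes lay at 0.14 or 0.21 with the pseudocount, 9 were positive and Lyz2 alone negative. Without Knockout 1, Wild-Type 2 and Wild-Type 5 together, 7 were positive and 3 negative. The summed CPM of the 10 was 113 ± 23.7 over the 6 Knockout libraries (SD) and 129 ± 27.1 over the 5 Wild-Type ones (SD), a log2 difference of -0.19 within a spread of 0.30 (SD) inside the genotypes. Without Lyz2 the difference was -0.07. The SD of log2 CPM inside the genotypes had a median of 0.33 over the members and 0.23 over all tested genes; C1qa and C1qc, each at 0.23, lay just under the latter and Lyz2, at 0.69, was highest.

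**Figure D1:**
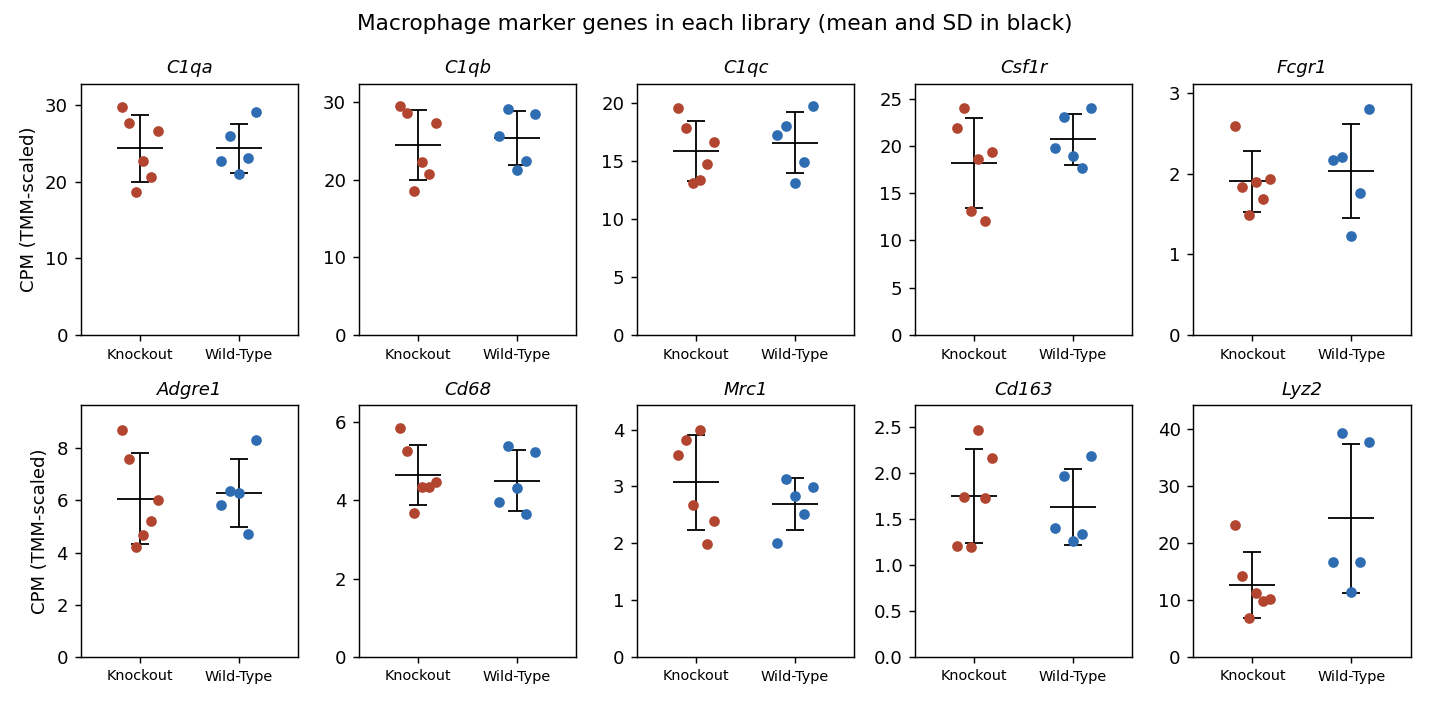
CPM (TMM-scaled) of each macrophage marker gene in the 6 Knockout and 5 Wild-Type libraries; each point is 1 library and black marks give the mean and SD. The groups overlap for all 10 genes, and the 2 highest Lyz2 points, 39.2 and 37.7 CPM, are Wild-Type.

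The C1q chains gave the tightest comparison. C1qa, the A chain of the hexameric recognition protein of complement, was at a lowest, median and highest of 18.7, 24.6 and 29.8 CPM in Knockout, and at 22.7, 25.9, 21.0, 23.0 and 29.1 CPM in Wild-Type 1 to 5. The Knockout libraries thus held both the lowest and the highest value, and the Wild-Type libraries lay inside their range. The log2 fold change of C1qa was -0.00 ± 0.13 (SE), with a 95% interval from -0.28 to 0.28 and an adjusted p of 0.999 (edgeR). C1qb, the B chain, was at 24.5 ± 4.54 CPM over the 6 Knockout libraries (SD) and 25.4 ± 3.52 CPM over the 5 Wild-Type ones (SD) (log2 -0.05 ± 0.13 SE, adjusted p = 0.906, edgeR). C1qc, the C chain, was at 15.9 ± 2.59 CPM (SD, n = 6) and 16.6 ± 2.61 CPM (SD, n = 5) (log2 -0.06 ± 0.13 SE, adjusted p = 0.875, edgeR). The 3 chains kept nearly fixed proportions per length: the TPM of C1qa was 0.956 to 1.11 times that of C1qb in the 11 libraries, and the TPM of C1qc was 0.642 to 0.757 times that of C1qb.

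Of the receptors, Csf1r, the receptor for the growth factors Csf1 and Il34, ran from 12.01 through a median of 19.0 to 24.01 CPM in Knockout, and was at 19.8, 23.1, 19.0, 17.7 and 24.01 CPM in Wild-Type 1 to 5. Knockout 3 at 13.1 CPM and Knockout 5 at 12.01 CPM lay below all Wild-Type libraries, and the rest overlapped. The fold change was -0.19 ± 0.17 on the log2 scale (SE; adjusted p = 0.688, edgeR). An annotated gene on the opposite strand, Hmgxb3, overlaps Csf1r, and the counting is not stated to use strand. Fcgr1, the high-affinity receptor for IgG, was low in all libraries, at 39 to 117 counts, with 1.91 ± 0.38 CPM over the 6 Knockout libraries (SD) and 2.04 ± 0.59 CPM over the 5 Wild-Type ones (SD) (log2 -0.09 ± 0.21 SE, adjusted p = 0.896, edgeR). Adgre1, which encodes the surface antigen F4/80, was at 4.23, 5.61 and 8.71 CPM as lowest, median and highest in Knockout and at 5.81, 6.35, 6.28, 4.71 and 8.32 CPM in Wild-Type 1 to 5. Its highest values were in Knockout 1 and Wild-Type 5, and its 95% interval ran from -0.48 to 0.38 on the log2 scale (adjusted p = 0.942, edgeR).

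The members of uptake and the lysosome did not separate either. Cd68, a glycoprotein of late endosomes and lysosomes, was at 4.65 ± 0.77 CPM over the 6 Knockout libraries (SD) and 4.51 ± 0.77 CPM over the 5 Wild-Type ones (SD) (log2 0.05 ± 0.14 SE, adjusted p = 0.920, edgeR). Mrc1, the mannose receptor and a common marker of tissue-resident and alternatively activated macrophages, was at 1.98, 3.11 and 4.00 CPM as lowest, median and highest Knockout value, and at 2.00, 3.13, 2.83, 2.52 and 2.98 CPM in Wild-Type 1 to 5. The 3 Knockout libraries 1, 2 and 4 lay above all Wild-Type libraries while 1 lay below them, and the fold change was 0.19 ± 0.20 on the log2 scale (SE; adjusted p = 0.722, edgeR). Cd163, the receptor for haptoglobin-bound haemoglobin, rested on only 36 to 82 counts per library, with 1.75 ± 0.51 CPM (SD, n = 6) and 1.63 ± 0.41 CPM (SD, n = 5) (log2 0.11 ± 0.23 SE, adjusted p = 0.884, edgeR). Its reads moved between 2 annotated transcripts, each of which took from 0% to 100% of them in a library, so no transcript of Cd163 was compared.

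**Figure D2:**
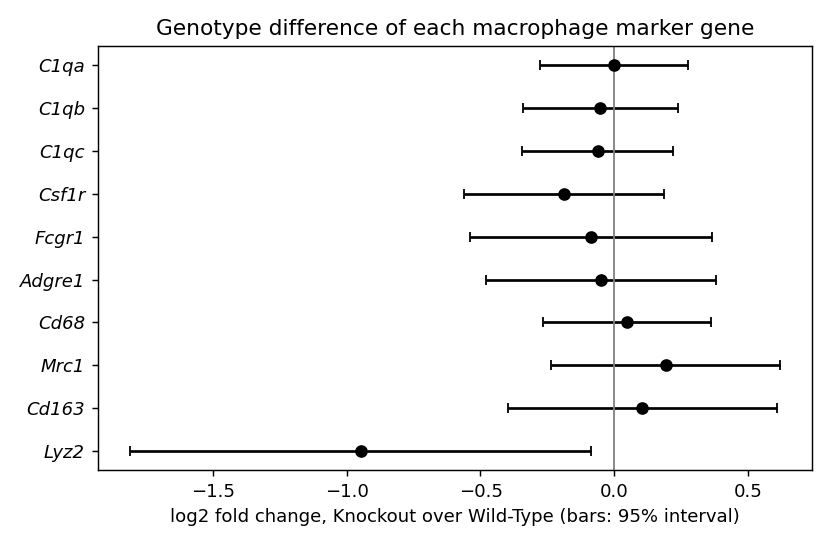
Log2 fold change, Knockout over Wild-Type, of each macrophage marker gene with its 95% interval (edgeR). The interval of Lyz2, from -1.81 to -0.09, is the single one that does not cross 0, before adjustment over all genes.

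Lyz2, which encodes the lysozyme of macrophages and other myeloid cells, was the member with the largest difference and the widest spread. It was at 23.2, 14.3, 6.74, 11.2, 9.80 and 10.2 CPM in Knockout 1 to 6 and at 16.7, 39.2, 11.4, 16.6 and 37.7 CPM in Wild-Type 1 to 5. The Wild-Type libraries 2 and 5 lay far above the rest, Knockout 1 was the next highest, and the remaining 8 libraries of both genotypes lay between 6.74 and 16.7 CPM. The means were 12.6 ± 5.75 CPM (SD, n = 6) and 24.3 ± 13.1 CPM (SD, n = 5), and the log2 fold change was -0.95 ± 0.39 (SE; unadjusted p = 0.0339, adjusted p = 0.369, edgeR). From the lowest to the highest library Lyz2 changed 5.82-fold, against 1.51-fold for C1qc and 2.29-fold for Fcgr1, the most stable and the most variable of the other 9. Without Knockout 1, Wild-Type 2 and Wild-Type 5, a fit that kept Wild-Type 4, its fold change was -0.51 on the log2 scale (adjusted p = 0.702, edgeR). These are also the 3 libraries with the most Lyz2 and were picked after the values were seen, so a smaller difference follows from the choice. Lyz1, with which Lyz2 shares words, gave 1.24% to 9.21% of the reads of the pair, with 0.542 ± 0.16 CPM over the 6 Knockout libraries (SD) and 1.95 ± 1.70 CPM over the 5 Wild-Type ones (SD) (log2 -1.82 ± 0.60 SE, adjusted p = 0.3001, edgeR). Lyz1 too was highest in Wild-Type 5 and Wild-Type 2, at 3.83 and 3.68 CPM.

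The 2 libraries with the highest Lyz2 also held the most B cell and T and NK cell markers, but no relation passed adjustment. The inguinal fat pad normally carries a lymph node, so lists for its cells were read alongside. Of the 7 listed B cell markers 5 were tested, and the summed CPM of all 7 was 60.4 in Wild-Type 2, 80.5 in Wild-Type 5, 17.98 in Wild-Type 4 and 14.8 in Knockout 1, against 0.661 to 4.08 in the other 7 libraries. The 2 untested ones, Ms4a1 and Pax5, were at 0 in 5 and 6 libraries. The summed CPM of the T and NK cell markers was 17.96 in Wild-Type 2, 28.2 in Wild-Type 5, 8.79 in Knockout 1 and 8.56 in Wild-Type 4, and 1.77 to 3.90 elsewhere. With genotype means subtracted, log2 CPM of Lyz2 and the mean log2 CPM of the tested B cell markers gave Pearson r = 0.815 (permutation p = 0.0117) and Spearman rho = 0.745 (permutation p = 0.0262) over 11 libraries, and r = 0.659 without the 2 libraries farthest from the median of Lyz2 (Knockout 1 and Wild-Type 2). Adjusted over the 150 relations of the 10 members to 15 lists of other cell types, that p was 0.131 for Pearson and 0.148 for Spearman, and 0 of the 150 passed 0.05, while 35 had an unadjusted Pearson p under 0.05. C1qa gave r = 0.684 (permutation p = 0.0108, adjusted p = 0.131) and rho = 0.791 (permutation p = 0.00188, adjusted p = 0.0801) with the same markers, and r = 0.408 without the 2 libraries farthest from the median of C1qa (Knockout 1 and Wild-Type 5). With the mean log2 CPM of the tested B cell markers as a covariate, the fold change of Lyz2 was -0.13 on the log2 scale (adjusted p = 0.902, edgeR). This covariate was chosen after seeing the data, and no other list was used as one. All 5 tested B cell markers were themselves lower in Knockout (median log2 -3.40, each with an unadjusted p under 0.05, edgeR). The covariate thus overlaps with genotype, and the fit cannot part them. Other lists gave relations to Lyz2 of like size over the same 11 libraries, so the B cell list is not singled out. Mast cells and eosinophils gave r = 0.801 (permutation p = 0.00837) and rho = 0.764 (permutation p = 0.0186), and neutrophils gave r = 0.766 (permutation p = 0.0107) and rho = 0.755 (permutation p = 0.0145). Adipocytes gave r = 0.760 (permutation p = 0.0062) and rho = 0.745 (permutation p = 0.0077), and plasma cells gave r = 0.720 (permutation p = 0.023) and rho = 0.818 (permutation p = 0.00737). The adjusted Pearson p was 0.131 for the first 3 of these and 0.152 for plasma cells. For T and NK cells it was r = 0.689 (permutation p = 0.0542, adjusted p = 0.213) and rho = 0.536 (permutation p = 0.139). Of the 9 listed neutrophil genes 2 were tested: S100a8 had 26 to 296 counts (log2 1.09 ± 0.44 SE, adjusted p = 0.360, edgeR) and Csf3r 21 to 50 counts (log2 -0.34 ± 0.24 SE, adjusted p = 0.592, edgeR). Of the other 7, S100a9 had 1 to 23 counts, Cxcr2 at most 5, and Ly6g, Camp, Ngp, Mpo and Retnlg at most 2 in any library. The part of any of these cell types in the Lyz2 values was not tested.

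**Figure D3:**
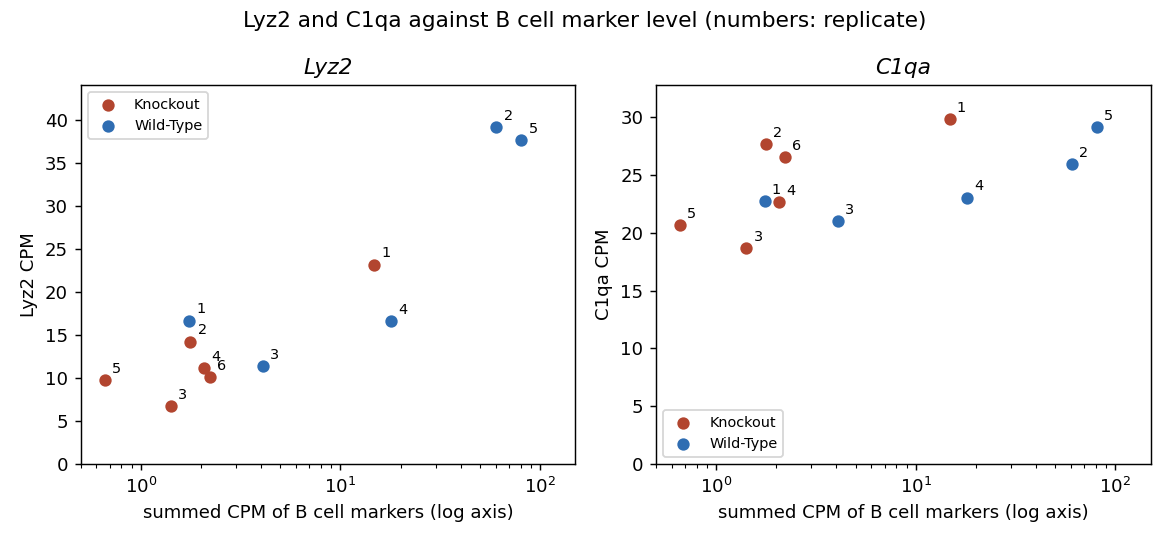
CPM of Lyz2 and of C1qa against the summed CPM of the B cell markers (log axis) in the 11 libraries, numbered by replicate within genotype. Wild-Type 2 and Wild-Type 5 hold the highest values of both Lyz2 and the B cell markers, while their C1qa, 25.9 and 29.1 CPM, lies within the Knockout range.

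Levels between genes were compared per length, in TPM. Lyz2 had the highest mean over the 11 libraries, 39.7 ± 23.5 TPM (SD), followed by C1qa at 19.8 ± 5.39, C1qb at 18.8 ± 4.94 and C1qc at 13.0 ± 3.38 TPM. Csf1r (2.59 ± 0.73 TPM) and Cd68 (2.41 ± 0.67 TPM) came next, then Adgre1 (0.916 ± 0.31 TPM) and Fcgr1 (0.759 ± 0.25 TPM), and Mrc1 (0.274 ± 0.09 TPM) and Cd163 (0.185 ± 0.05 TPM) were last. The order held between neighbours in all 11 libraries for 5 of the 9 steps. C1qa lay above C1qb in 9 libraries, Csf1r above Cd68 in 8, Adgre1 above Fcgr1 in 9 and Mrc1 above Cd163 in 9. Lyz2 was 1.16 to 2.49 times the mean TPM of the C1q chains in Knockout libraries and 1.75 to 4.58 times in Wild-Type libraries, ranges that overlap.

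Across libraries the members varied together. In Wild-Type 2 and Wild-Type 5 all 10 members lay above their own median, in Knockout 1 it was 9 and in Knockout 2 it was 8, whereas in Knockout 3 and Knockout 5 none did. Knockout 3 held the lowest value of 6 members. With genotype means subtracted, all 45 pairs of members were positively related over the 11 libraries, with a median Pearson r of 0.73 and a range from 0.09 to 0.95. Of the 45 pairs, 26 passed 0.05 for Pearson r and 27 for Spearman rho after adjustment over the pairs (permutation within genotype, 100000 draws). The share of such pairs among all tested genes was not computed, so the count is not shown to be particular to macrophage genes. To lists of other cell types the members had a median r from -0.50 for milk proteins to 0.75 for neutrophils. It was 0.71 for adipocytes and 0.68 for plasma cells, though 0 of those 150 relations passed adjustment. The C1q chains had Pearson r from 0.900 to 0.953: C1qa and C1qb gave r = 0.953 (permutation p = 0.00017) and rho = 0.891 (permutation p = 0.00193), and r = 0.959 without the 2 farthest libraries. None of the 17 pairs with Cd163 or Mrc1 passed the adjusted threshold, for Pearson r or Spearman rho. Adgre1 and Cd163 had the lowest value, r = 0.085 (permutation p = 0.815) and rho = 0.227 (permutation p = 0.540), and Mrc1 with Cd163 gave r = 0.224 (permutation p = 0.544) and rho = 0.291 (permutation p = 0.439). Mrc1 with Csf1r reached r = 0.707 (permutation p = 0.0454, adjusted p = 0.073) and rho = 0.691 (permutation p = 0.0562). Without the 2 farthest libraries, Cd163 gave r = 0.752 with Lyz2, 0.671 with Fcgr1 and 0.614 with Cd68, higher than over all 11, but 0.252 with Csf1r, lower than the 0.35 over all 11; the libraries left out differ between pairs. The points share library and scaling factor.

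**Figure D4:**
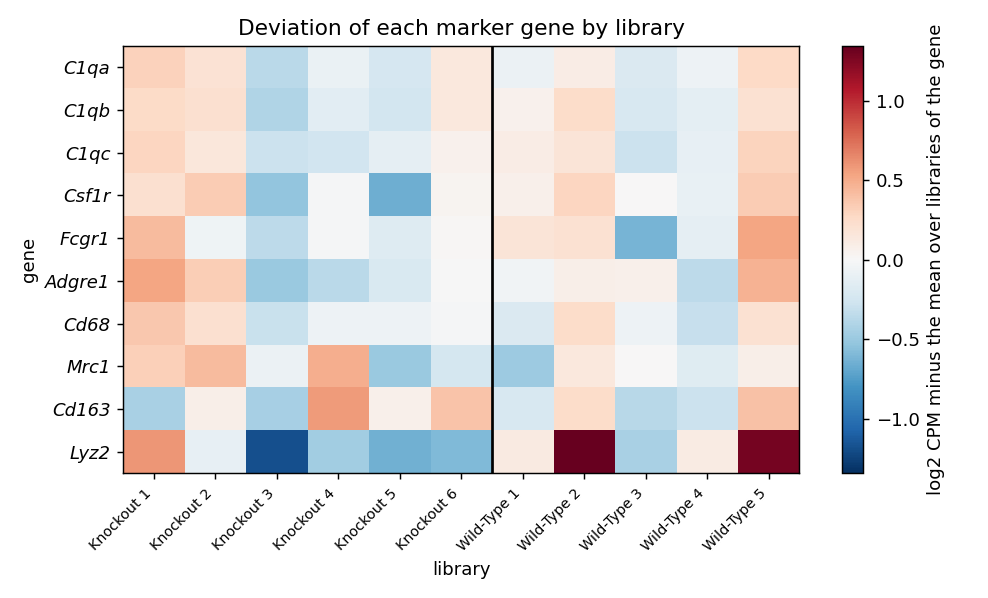
Log2 CPM of each macrophage marker gene minus its mean over the 11 libraries; the vertical line parts Knockout from Wild-Type. Knockout 3 and Knockout 5 are low and Wild-Type 2 and Wild-Type 5 are high for most genes, and Lyz2 has the strongest colours.

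The genes whose pattern over the 11 libraries came nearest to the mean of the members, by Pearson r with genotype means subtracted, were H2-Aa (r = 0.954), Evi2a (0.954), Phf11b (0.952), Mef2c (0.948) and H2-Eb1 (0.947). They are the top 5 of all tested genes and are given as a description. H2-Aa and H2-Eb1 encode chains of MHC class II, which macrophages, dendritic cells and B cells use to present antigen. H2-Aa was at 74.6 ± 11.98 CPM over the 6 Knockout libraries (SD) and 92.6 ± 23.4 CPM over the 5 Wild-Type ones (SD) (adjusted p = 0.455, edgeR). It was highest in Wild-Type 5 and Wild-Type 2, at 125.5 and 108.8 CPM.

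The wider macrophage programme was read from 9 further lists, which held 68 tested genes: 27 had a positive and 41 a negative log2 fold change, with a median of -0.06, and none passed the adjusted threshold (18 had an unadjusted p under 0.05, edgeR). Over all tested genes 0.055% were called and 12.4% had an unadjusted p under 0.05. The lists are not specific to macrophages: the 41 include Lalba, a milk protein related to lysozyme, at 7297 and 8055 CPM, and Mfge8, abundant in milk fat globules, at 4703 and 5427 CPM in Knockout and Wild-Type. Among growth and lineage factors, 3 of 9 were positive and 6 negative. Csf2rb, the beta chain shared by the receptors of Csf2 and its relatives, was at 18.5 ± 5.47 CPM over the 6 Knockout libraries (SD) and 28.9 ± 7.49 CPM over the 5 Wild-Type ones (SD) (log2 -0.65 ± 0.22 SE, adjusted p = 0.313, edgeR). The value was -0.22 with transcript length offsets (adjusted p = 0.826, edgeR) and -0.31 on the authors' normalized counts (adjusted p = 0.760, limma), and Csf2rb2 is a close copy next to it, so the split of their reads is uncertain. Spi1, which encodes PU.1 and was chosen after its values were seen, was at 2.58 ± 0.63 and 3.77 ± 1.21 CPM (SD; adjusted p = 0.360, edgeR). Among the Fc and ITAM receptors and their partners 1 of 10 was positive and 9 negative. Syk, the kinase downstream of ITAM receptors in myeloid and B cells, was at 1.42 ± 0.54 CPM (SD, n = 6) and 3.21 ± 1.91 CPM (SD, n = 5) (adjusted p = 0.299, edgeR), and as with Lyz2 its highest values, 5.41 and 5.18 CPM, were in Wild-Type 5 and Wild-Type 2. Its log2 fold change of -1.16 was -0.54 without Knockout 1, Wild-Type 2 and Wild-Type 5, and -0.18 with B cell markers as a covariate (adjusted p = 0.732 and 0.834, edgeR). Both settings were chosen after seeing the data, and the B cell covariate overlaps with genotype. Clec7a, the beta-glucan receptor, had a log2 fold change of 0.38 ± 0.17 (SE; adjusted p = 0.385, edgeR).

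Genes of the clearance of dying cells were split, 5 positive and 6 negative of 11. Gas6, the ligand that bridges dying cells to the receptors Mertk and Axl, was at 41.3, 33.2, 35.7, 26.3, 30.9 and 36.7 CPM in Knockout 1 to 6 and at 21.6, 24.5, 19.0, 19.1 and 24.7 CPM in Wild-Type 1 to 5. All Knockout libraries lay above all Wild-Type libraries, one of the 168 such genes (1.32% of those tested). Its log2 fold change was 0.64 ± 0.12 (SE) and missed the threshold in edgeR (adjusted p = 0.0967), while DESeq2 gave an adjusted p of 0.000161. Gas6 is also made by other cells, and its receptors were not called: Axl was at 0.08 ± 0.11 and Mertk at -0.03 ± 0.26 on the log2 scale (SE, adjusted p = 0.799 and 0.978, edgeR). Marco, a scavenger receptor, had 19, 1, 0, 2, 1 and 1 counts in Knockout 1 to 6 and 0, 163, 63, 98 and 86 counts in Wild-Type 1 to 5. Thus 4 Wild-Type libraries were above all Knockout libraries and Wild-Type 1 was at 0 (edgeR adjusted p = 0.218, DESeq2 adjusted p = 0.0208). Without Knockout 1, alone or with Wild-Type 2 and Wild-Type 5, Marco did not pass the filter on low counts and has no value; it passed through the libraries where it is high, so its difference is a description. Timd4, a receptor for phosphatidylserine that was chosen after its values were seen, had 21, 2, 2, 1, 0 and 1 counts in Knockout and 3, 84, 15, 53 and 49 counts in Wild-Type (edgeR adjusted p = 0.230). It too rests on the libraries where it is high, so its difference is likewise a description. In both genes Knockout 1 was the highest Knockout library and Wild-Type 1 the lowest Wild-Type library. Summed B cell markers were also highest of the Knockout libraries in Knockout 1 and lowest of the Wild-Type libraries in Wild-Type 1, at 14.8 and 1.75 CPM, but Wild-Type 3 had fewer B cell markers than Knockout 1 (4.08 CPM) and more Marco (1.98 against 0.422 CPM). With B cell markers as a covariate, which overlaps with genotype, the fitted log2 fold change of Marco moved from -4.67 to -2.87 (adjusted p = 0.263, edgeR). Libraries at or near 0 make both values depend on the prior count. That fit is not given for Timd4, and the part of lymphoid cells in either gene's counts was not tested.

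In the list of resident and alternatively activated macrophages, 4 of 8 tested genes were positive and 4 negative. Cbr2, a carbonyl reductase, was at 7.45 ± 0.58 CPM over the 6 Knockout libraries (SD) and 5.49 ± 0.88 CPM over the 5 Wild-Type ones (SD) (log2 0.44 ± 0.11 SE; adjusted p = 0.228 in edgeR and 0.0365 in DESeq2). Fcna, a ficolin of the lectin pathway of complement, had a log2 fold change of -0.23 ± 0.12 (SE; adjusted p = 0.445, edgeR), and Vsig4, a complement receptor of some resident macrophages, was at 0 in 9 of 11 libraries. Of monocyte and inflammatory genes 6 of 11 were tested, 1 positive and 5 negative, among them the cytokine Il1b (log2 -0.65 ± 0.40 SE, adjusted p = 0.527, edgeR) and the chemokine Ccl2 (log2 0.27 ± 0.42 SE, adjusted p = 0.830, edgeR). Of the lysosomal and lipid-handling genes 9 of 10 were positive, with a median of 0.25, and none was called. Over all tested genes 51.7% were negative, and lists of other cells leaned either way. Positive were 6 of 6 fibroblast genes (median 0.35), 6 of 6 myoepithelial genes (0.22), 7 of 8 adipocyte genes (0.28) and 4 of 5 luminal genes (0.31), but 0 of 5 B cell, 0 of 5 T and NK cell, 0 of 7 milk protein, 1 of 5 plasma cell and 1 of 5 red blood cell genes. Apoe, a lipid carrier of macrophages, adipocytes and other cells, was at 346.8 ± 53.4 CPM (SD, n = 6) and 262.4 ± 41.9 CPM (SD, n = 5) (log2 0.40 ± 0.13 SE, adjusted p = 0.282, edgeR), and the protease Ctss was at -0.01 ± 0.17 on the log2 scale (SE; adjusted p = 0.988, edgeR). Summed adipocyte markers were 944 to 1504 CPM in Knockout libraries and lower in each Wild-Type library, at 550 to 865 CPM, of which Cfd alone had means of 905 and 528 CPM; Adipoq overlapped between groups, at 42.0 to 58.3 and 29.5 to 43.3 CPM, and Lep was at -0.81 ± 0.50 on the log2 scale (SE; adjusted p = 0.5258, edgeR). The part of these cell types in the lipid-handling values was not tested. Of the ductal macrophage genes 2 of 5 were positive and none was called. Cx3cr1, the fractalkine receptor, was at 1.75 ± 0.45 CPM (SD, n = 6) and 1.75 ± 0.27 CPM (SD, n = 5), adjusted p = 0.994 (edgeR). Tmem119 was at -0.12 ± 0.18 on the log2 scale (SE, adjusted p = 0.822, edgeR).

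The proteins that act with C1q were tested as a list of 7, with 2 positive and 5 negative and none called. C1s2, a copy of the C1s protease gene, was at 6.31 ± 0.75 CPM (SD, n = 6) and 7.03 ± 0.85 CPM (SD, n = 5) (log2 -0.16 ± 0.11 SE, adjusted p = 0.584, edgeR). C2, which the activated protease cleaves, was at 0.35 ± 0.29 on the log2 scale (SE; adjusted p = 0.656, edgeR). C1r, C1s and C4 have near-identical copies in the mouse, so the split of their reads is uncertain.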

How the data were processed

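RNA of 6 Knockout and 5 Wild-Type inguinal mammary glands was sequenced as strand-specific libraries of total RNA, per the labels' protocols. The authors deposited 1 transcript table per library, in which, per the file headers, each transcript has an estimated count of reads, a TPM value and an effective length, and a gene table of signal values whose name calls them DESeq2-normalized counts. Salmon 1.3.0, DESeq2 1.28.1 and genome GRCm38.p6 are named in the submitters' processing notes, with no role or order; index and options are not given in the sources used here.

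Expected counts were summed per gene and rounded, by GENCODE M21 identifiers, which matched 57452 of 58204 transcripts; the others held 0.195% to 0.265% of reads. Genes passing edgeR's filterByExpr (12716 of the 17503 with reads) were fitted with edgeR 4.0.16 (TMM, robust quasi-likelihood F test, genotype as the only term, Benjamini-Hochberg, threshold 0.05). Alternatives used DESeq2 1.42.0, limma 3.58.1, other scalings, filters and lengths, and left-out libraries. The main edgeR fit was tested on counts simulated with the same dispersion for all genes, and the alternatives were not tested so. Groups and replicate numbers came from the titles, and the main fit did not pair libraries by number. Named genes are all members, the gene of smallest p in each direction of each macrophage list, and the 5 nearest in pattern. A gene so chosen is not reported here. The members are named markers, picked by no measured value, but they and the lists were chosen with earlier results of these data known. Relations used log2 CPM (prior count 2) permuted within genotype. Intervals and permutations cover the spread between libraries only.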

Additional observations from a re-analysis of the deposited data

Results flagged for a closer look

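In 96 sets of 5 or 6 libraries of 1 genotype, 5 held a library far from its neighbours by Dixon's criterion, and chance gives about 1 in 20, here 4.8. Marco was at 0.422 CPM in Knockout 1, against 0 to 0.0601 CPM in the other Knockout libraries. The summed CPM of the B cell markers was 14.8 in Knockout 1, against 0.661 to 2.22 in the others. That of the T and NK cell markers was 8.79 in Knockout 1, against 1.77 to 3.90. That of the skeletal muscle markers was 1986 in Knockout 1, against 2.11 to 148. That of the luminal epithelial markers was 816 in Wild-Type 4, against 449 to 550 in the other Wild-Type libraries. No member was among the sets so marked.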

How the results depend on the processing

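No member was called under any alternative. The count of called genes, 7, became 146 with DESeq2, 1 with limma on log2(TPM + 1), 3 on log2(TPM + 0.1), 23 with B cell markers as a covariate, 1 without Knockout 1, Wild-Type 2 and Wild-Type 5 together (both chosen after seeing the data), and 0 to 28 with 1 library left out. It was 0 without Knockout 3 or Knockout 6, 2 without Knockout 1 or Wild-Type 3, 28 without Knockout 2, 13 without Wild-Type 1 or Wild-Type 5 and 14 without Wild-Type 4. The replicate block gave 0 called genes. Correlations of same-numbered libraries were -0.22 to 0.19, and none but number 3 had its own number as best partner. These values cannot show whether the numbers pair the libraries. Lyz2 stayed negative throughout, from -1.21 to -0.71 with 1 library left out and -0.86 with the replicate block. Gas6 passed without Knockout 4 (adjusted p = 0.0499) and with B cell markers as a covariate (0.0389), and Marco without Wild-Type 1 (0.0402); Marco could not be fitted without Knockout 1, where it missed the filter on low counts. The TPM scale, which has no TMM factor, moved the median log2 fold change of all genes to 0.14 and 0.21, and member changes are to be read against it. Signs turned mostly for log2 fold changes near 0, but under the B cell covariate also for Lyz1 (-1.82), Mef2c (-0.41), H2-Aa (-0.31), H2-Eb1 (-0.27) and Phf11b (-0.27), and under the block and without Knockout 2 for Ccl2 (0.27); the cause was not tested. With transcript length offsets in edgeR it was Adgre1 0.015. With limma on log2(TPM + 1) it was Adgre1 0.12, Csf1r 0.018, C1qa 0.21, C1qb 0.16, C1qc 0.15, Fcgr1 0.069, Ctss 0.20, Tmem119 0.066 and C1s2 0.040. With limma on log2(TPM + 0.1) it was Adgre1 0.21, Csf1r 0.0075, C1qa 0.22, C1qb 0.17, C1qc 0.16, Fcgr1 0.15, Ctss 0.20, Tmem119 0.083 and C1s2 0.072. With limma on the authors' normalized counts it was Adgre1 0.0055 and Cx3cr1 -0.034. With B cell markers as a covariate (chosen after seeing the data) it was Adgre1 0.21, Csf1r 0.020, C1qa 0.22, C1qb 0.13, C1qc 0.12, Fcgr1 0.21, Ctss 0.18, Tmem119 0.098, Lyz1 0.21, H2-Aa 0.031, Phf11b 0.43, Mef2c 0.23 and H2-Eb1 0.050. With DESeq2 it was C1qa 0.0049. With RLE factors in edgeR it was C1qa 0.0045. With upper quartile factors in edgeR it was C1qa 0.00099. With milk protein genes left out it was C1qa 0.0077. Without Knockout 1, Wild-Type 2 and Wild-Type 5 together it was C1qa 0.067, C1qb 0.028, C1qc 0.011, Fcgr1 0.049, Ctss 0.054 and Phf11b 0.12. With the replicate block it was Ccl2 -0.039 and Cx3cr1 -0.057. With 1 library left out, the range crossed 0 for Adgre1 -0.18 to 0.070, Cd68 -0.022 to 0.12, Cd163 -0.019 to 0.23, C1qa -0.060 to 0.071, C1qb -0.11 to 0.016, C1qc -0.14 to 0.0065, Fcgr1 -0.22 to 0.057, Ccl2 -0.0010 to 0.43, Ctss -0.091 to 0.072 and Cx3cr1 -0.062 to 0.12. The lowest counts of a member in a library were 36 for Cd163, 39 for Fcgr1 and 54 for Mrc1; the part of depth in their spread was not tested.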
